A study of Mus musculus with 9 samples.

Results

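The amygdala was profiled on 3 of the 9 arrays of this study, chosen by the tissue label, with 1 array for each of 3 feeding regimens. The other 6 arrays hold hypothalamus and prefrontal cortex of the same regimens. The series title places the work on food restriction, anxiety- and depression-like behaviour and amygdala gene expression. All mice were male wild-type C57BL/6J aged 8 to 9 weeks.

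The AD mice ate freely (ad libitum) and were the controls. The RFR mice went through repeated fasting and refeeding, with days of fasting alternating with days of free feeding. The CR mice (caloric restriction) received, spread over each pair of days, a fixed part of what the RFR mice had eaten on their feeding day, so both the amount and the timing of food differ between CR and RFR. Fasting or feeding periods were switched at 20:00, and the mice used here were killed at 14:00 on day 8 under ether anaesthesia. The labels do not settle whether that hour of day 8 fell in a fast or in a feeding period of the RFR mice. Blood was flushed out with cold buffer, and the amygdala was cut from a coronal slice 1 mm thick, taken 1.5 to 2.5 mm behind bregma. RNA of 4 mice was pooled per array and 400 ng of it was labelled with Cy3. Each regimen therefore has a single amygdala measurement, the spread between mice is not known, and no difference between amygdala arrays has a p-value.

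The amygdala is a group of nuclei in the temporal lobe that assigns threat and reward value to sensory signals. Its lateral and basal nuclei hold glutamatergic projection neurons related to those of cortex, and its central nucleus holds GABAergic neurons related to those of striatum, some of which express corticotropin-releasing factor or protein kinase C delta and act on feeding and fear. It lies close to the striatum, to the temporal horn of the lateral ventricle with its choroid plexus, and to the lateral hypothalamus and optic tract.

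Values are given as log2 of a probe's signal over its array's 75th percentile, so a level of 0 is the signal of the 75th percentile and a difference of 1 is 2-fold. All 14 amygdala neuron markers on the array were well above background (the scanner software's flag) on all 3 amygdala arrays, and 6 of them were higher on each amygdala array than on each of the other 6 arrays. Cyp26b1, a retinoic acid-degrading enzyme, had 3.40 on the AD, 2.87 on the RFR and 2.89 on the CR array, against at most 0.13 elsewhere. Tfap2c, a transcription factor, lay between -2.25 and -1.97 on the amygdala arrays and at most at -4.43 elsewhere. The tissue label fits the 6 markers that were highest in amygdala. On each of the other 6 arrays 12 or 13 of the 14 were also well above background, so that flag does not set amygdala apart. Cartpt, Tac2 and Dlk1 were higher in hypothalamus than in amygdala, and Rspo2 and Slc30a3 were higher in prefrontal cortex. Markers of neighbouring tissue were present at low level: the summed linear signal of the 17 hypothalamic markers was 14.9 on the AD, 21.8 on the RFR and 13.6 on the CR array, in units of the 75th percentile, against 384 to 468 in hypothalamus. Of these 17 markers, 13 were well above background on all 3 amygdala arrays, the transcription factors Nkx2-1, Sim1 and Lhx9 among them, and 2 on none, Otp and Hmx3. Otp was well above background on none of the 9 arrays and Hmx3 on 3, so the first carries no information on tissue. Lhx9 was higher on the amygdala arrays (-1.65 to -1.44) than on the hypothalamus arrays (-2.82 to -2.07). Kiss1 was highest in prefrontal cortex, so neither Lhx9 nor Kiss1 marks hypothalamus here. Sim1 differed little, with -4.19 to -3.51 in amygdala and -3.55 to -3.17 in hypothalamus. In bulk tissue, fewer cells of a type and less RNA per cell cannot be told apart.

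Between 27697 and 30199 of 43379 noncontrol spots per amygdala array were well above background, with most on the CR array. The 3 arrays lie on 3 slides. The CR array is the only one of the study on its slide and was scanned on a later day than the other 8, so slide and regimen cannot be told apart in any amygdala comparison. Probes printed 10 times differed between their spots by a median SD of 0.063 to 0.088, and the scanner software's spot error gives 0.21 for the difference of 2 arrays. Both describe the reading of an array and leave out the mice, the dissection and the labelling.

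The arrays were first compared by how many genes differed by at least 2-fold, over genes well above background on both arrays. CR and AD differed at 399 of 12246 genes (3.26%), of which 273 were higher (2.23%) and 126 lower (1.03%) on the CR array. RFR and AD differed at 177 of 12074 genes (1.47%), 120 higher (0.994%) and 57 lower (0.472%) on the RFR array. CR and RFR differed at 264 of 12202 genes (2.16%), 104 higher (0.852%) and 160 lower (1.31%) on the CR array. The comparisons share arrays, so their counts are not separate evidence. Most of these genes were dim: 303, 138 and 204 of them lay under the 75th percentile on both arrays. Bright genes are those at or above it on at least 1 of the arrays. Between CR and AD, 96 of 6835 bright genes (1.4%) differed by 2-fold, 59 higher (0.863%) and 37 lower (0.541%) on the CR array. Between RFR and AD it was 39 of 6809 (0.573%), 22 higher (0.323%) and 17 lower (0.25%), and between CR and RFR 60 of 6805 (0.882%), 19 higher (0.279%) and 41 lower (0.602%).

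The direction of these counts depends on how the arrays are scaled. Of the genes that differed between CR and AD, 68.4% were higher on the CR array, against 54.9% under another background correction (normexp), 83.2% with the medians of all genes set equal and 88.3% with the authors' deposited table. For RFR and AD the share was 67.8%, against 57.3% under normexp, 53.0% under quantile scaling and 77.9% with the authors' deposited table. For CR and RFR it was 39.4%, against 27.8% under normexp, 50% with equal medians and 55.3% with the authors' deposited table. Setting the 7 spike-in controls equal instead, which were lower by a median of 0.34 on the CR and 0.30 on the RFR array than on the AD array, put 94.3% of CR and 94.9% of RFR differences from AD on the higher side. The median gene differed by -0.11 between CR and AD, and the difference moved with brightness: it was 0.02 for the 2864 genes with a mean level under -2 and -0.28 for the 919 genes at 4 or more. For RFR minus AD these medians were 0.10 and -0.14, and for CR minus RFR -0.03 and -0.14. Of all genes, 38.2% were higher on the CR than on the AD array, 45.8% on the RFR than on the AD array and 43.6% on the CR than on the RFR array, and the counts of list members in each direction read against these shares.

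**Figure D1:**
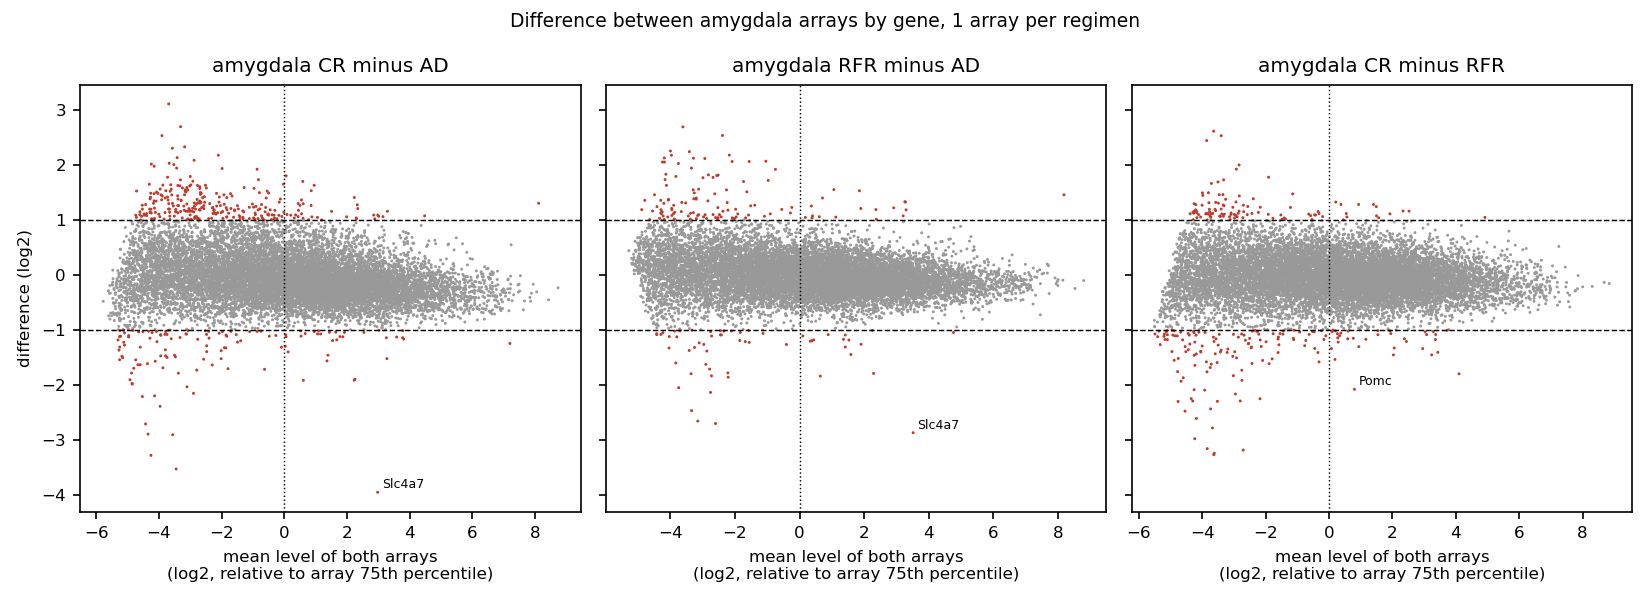
Difference between amygdala arrays (vertical, log2) against the mean level of both arrays (horizontal, log2 relative to the array 75th percentile), 1 point per gene well above background on both arrays. Red points differ by at least 2-fold (dashed lines), and the dotted line marks the 75th percentile. Most 2-fold genes lie to the left of it, and Slc4a7 stands lowest in the panels of CR and RFR minus AD.

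Genes that set the AD array apart from both others were counted next, since CR and RFR are both compared with it. Of 12053 genes well above background on all 3 arrays, the AD array was at least 2-fold higher than both others at 25 (0.207%) and lower at 43 (0.357%). The RFR array was higher at 41 (0.34%) and lower at 9 (0.0747%), and the CR array higher at 42 (0.348%) and lower at 33 (0.274%). Counted against all 8 other arrays of the study, over 11231 genes well above background on all 9, the amygdala AD array was at least 2-fold lower at 12 genes, more than the 0 to 5 of any other array, and higher at 8. Each array has a few such genes.

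Several bright genes with large differences were lowest on the AD array. Lars2, the mitochondrial leucyl-tRNA synthetase, had 7.46 on the AD, 8.92 on the RFR and 8.76 on the CR array, and 8.21 to 9.45 on the arrays of the other regions. Srrm2, a scaffold of nuclear speckles, had 2.60, 3.93 and 3.21 in the same order, against 3.28 to 3.74 elsewhere. In both genes the AD array was the lowest and lay below the range of the other regions, as did the CR array for Srrm2. Prpf19, a ubiquitin ligase of the spliceosome, had 1.09 (AD), 2.62 (RFR) and 1.88 (CR), against 2.46 to 2.97 elsewhere, so its CR array lay below that range too. Magee1, a MAGE family protein of the dystrobrevin complex, had -0.26, 0.99 and 1.44, against 0.67 to 1.45. Tatdn2, a putative deoxyribonuclease, had -1.83, -0.11 and 0.09, against -0.44 to 0.55. These genes were also lower on the AD array than on every array of the other regions, and the RFR and CR arrays differed by less than 2-fold in each.

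Actb, the cytoskeletal actin often used as a reference gene, had -0.85 on the AD, 0.28 on the RFR and 0.96 on the CR array, a difference of 1.80 between CR and AD. Its 6 values in the other regions ran the other way, from 0.28 (AD) to -0.90 (CR) in hypothalamus and from 0.53 to -0.62 in prefrontal cortex. Kcnip2, an auxiliary subunit of A-type potassium channels, had -1.69, -0.80 and 0.04. Elfn2, a postsynaptic adhesion protein, had -0.85, 0.38 and 0.80, and Ddb1, a DNA damage-binding adaptor of ubiquitin ligases, 0.14, 0.87 and 1.77. In these genes the RFR array lay between AD and CR. Tmcc2, a membrane protein of the endoplasmic reticulum, had 0.09, 0.92 and 1.63 in the same order.

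Higher on the AD array than on both others stood Slc4a7, a sodium bicarbonate cotransporter, with 4.95 on the AD, 2.09 on the RFR and 1.00 on the CR array, -3.95 between CR and AD. In the other regions its AD arrays were the lowest, at 1.61 and 1.72. Ppp3r1, the regulatory subunit of calcineurin, had 1.56, -0.28 and -0.35, and its other 2 probes differed by -2.10 and -1.85 between CR and AD and by -0.85 and -0.76 between RFR and AD. Ppp3r1 is thus a gene whose 3 probes all lay lower on the CR and RFR arrays. Cap2, an actin-binding protein, had 3.19, 1.40 and 1.28, but its other probe differed by 0.09 (CR) and 0.04 (RFR). Trim54, a muscle-type microtubule-binding ligase, had 0.22, -1.04 and -1.49.

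Other bright genes were low on the CR array alone. Raly, an hnRNP family protein, had 3.20 on the AD, 2.76 on the RFR and 1.31 on the CR array, against 2.98 to 3.58 elsewhere. Snrpd3, a core protein of spliceosomal small nuclear RNPs, had 4.03, 3.96 and 2.51, against 3.79 to 4.2, and its other probe differed by -1.30 between CR and AD. Celf3, a neuronal splicing regulator, had 4.34, 5.0 and 3.20, against 4.15 to 5.15. For these 3 genes the CR array lay below all 8 other arrays of the study. Scoc, a Golgi coiled-coil protein, had 2.14, 1.75 and 0.58, but its other probe differed by -0.18 between CR and AD. Pde4a, a cyclic AMP phosphodiesterase, had 3.72, 4.13 and 2.73.

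The RFR array carried higher signal of genes of choroid plexus, the epithelium that makes cerebrospinal fluid. Of 10 measured markers, 9 were higher on the RFR than on the AD array and 4 by at least 2-fold, with a median 0.59 above that of all genes, and 10 of 10 were lower on the CR than on the RFR array. Ttr, the thyroxine carrier transthyretin, had -3.47 on the AD, -1.66 on the RFR and -3.95 on the CR array. Calml4, a calmodulin-like protein of epithelial brush borders, had -4.53, -2.29 and -5.07. Kcne2, a potassium channel subunit, had -4.32, -2.37 and -4.67, and Folr1, a folate receptor, -3.36, -1.89 and -3.62. For these 4 genes the RFR array stood alone and the AD and CR arrays lay within 0.54 of each other. Their mean levels over the AD and RFR arrays lie under -2. At such levels 60.5% of 2694 genes were higher on the RFR than on the AD array, with a median of 0.10. The summed signal of the 13 choroid plexus genes was 4.61 (AD), 6.16 (RFR) and 4.62 (CR), against 10.1 to 11 in hypothalamus. This sum leans on Clic6, the brightest of them, at 1.06 to 1.49 in amygdala and 2.48 to 2.67 in hypothalamus. On the RFR amygdala array, Ttr and Kcne2 lay above their highest hypothalamus values, -2.69 and -3.59. Folr1 and Calml4 lay below their lowest hypothalamus values. Of the 13 genes, 10 were well above background on all 3 amygdala arrays. Otx2 and F5 were well above background on none of the 9 arrays and so say nothing on tissue.

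Ependymal and motile cilia genes, of the ventricle lining, followed the same order. Of 8 measured genes, 7 were higher on the RFR than on the AD array, and 7 were lower on the CR than on the RFR array, 3 of them by at least 2-fold. Dynlrb2, a dynein light chain, had -2.23 (AD), -1.23 (RFR) and -2.29 (CR), just under 2-fold between RFR and AD. Tekt1, a structural protein of cilia, had 0.25, 0.88 and -0.22, and Hydin, a protein of the ciliary central apparatus, -3.51, -2.94 and -3.71. All 3 were highest on the RFR array. The promoters of these genes are shown because cilia genes are known targets of RFX factors. The letters GTTGCC, which begin the RFX half-site, or their complement were found in the 250 bases before a RefSeq start (build GRCm38.p6) of 4 of 9 matched ependymal genes (44.4%) and of 11.8% of 27025 genes. It was 1 of 9 motifs searched in 7 lists after the values were known. The capitals mark the match, and a match is not a shown binding site.
Hydin, chr8:110266940-110266976, plus strand: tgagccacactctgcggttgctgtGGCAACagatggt
Dynlrb2, chr8:116504940-116504993, plus strand: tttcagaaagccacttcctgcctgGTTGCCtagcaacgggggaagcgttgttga
Tekt1, chr11:72361883-72361921, minus strand: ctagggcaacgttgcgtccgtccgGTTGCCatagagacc

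Most hypothalamic markers were also higher on the RFR than on the AD array, 12 of 13 measured, with a median 0.44 above that of all genes. These 13 include Lhx9 and Kiss1, which were not highest in hypothalamus. Several of the 13, Pmch among them, have a mean level under -2. Of the 2694 genes there, 60.5% were higher on the RFR than on the AD array, with a median of 0.10. Between CR and RFR, 10 of 13 were lower and 3 higher on the CR array, Trh, Nkx2-1 and Sim1. Pmch, the precursor of melanin-concentrating hormone, had -3.43 on the AD, -1.61 on the RFR and -1.93 on the CR array. Hcrt, the orexin precursor, had -2.14, -0.88 and -1.67. Pomc, the precursor of melanocortins and corticotropin, had 0.29, 1.84 and -0.24, a difference of -2.08 between CR and RFR. Pomc was low on both the AD and the CR array, while Pmch on the CR array lay near its RFR value. In prefrontal cortex Pomc ran from -0.44 to 0.64, a range that holds its amygdala AD and CR values, against 3.92 to 4.88 in hypothalamus. Pomc also belongs to the pituitary list. The pituitary hormones Prl and Gh were well above background on the RFR amygdala array only, at -1.43 and -3.18, and Prl there was at least 17.3-fold above the AD and 25.6-fold above the CR array. Prl was well above background on 3 of the 9 arrays, the RFR arrays of the 3 regions, so its signal was not particular to the amygdala. Pool and regimen cannot be told apart here. Cga, the common subunit of glycoprotein hormones, was well above background on the RFR array at -4.10 and on the CR array at -4.91. The pituitary transcription factors Pou1f1 and Tbx19 were well above background on none of the 9 arrays and so say nothing on tissue. The part of neighbouring tissue in the RFR differences was not tested.

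Globins ran against these groups. Hba-a1, an alpha globin, had 2.07 on the AD, 0.76 on the RFR and 2.05 on the CR array, and Hbb-bt, a beta globin, 2.76, 1.75 and 2.92, with its 3 other probes 0.89 to 1.08 lower on the RFR than on the AD array. The RFR array was the low one for both. In hypothalamus the RFR array was the low one too, with Hba-a1 at 1.23, -0.20 and 1.77. Blood was flushed from these brains, and how much stayed behind is not given.

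**Figure D2:**
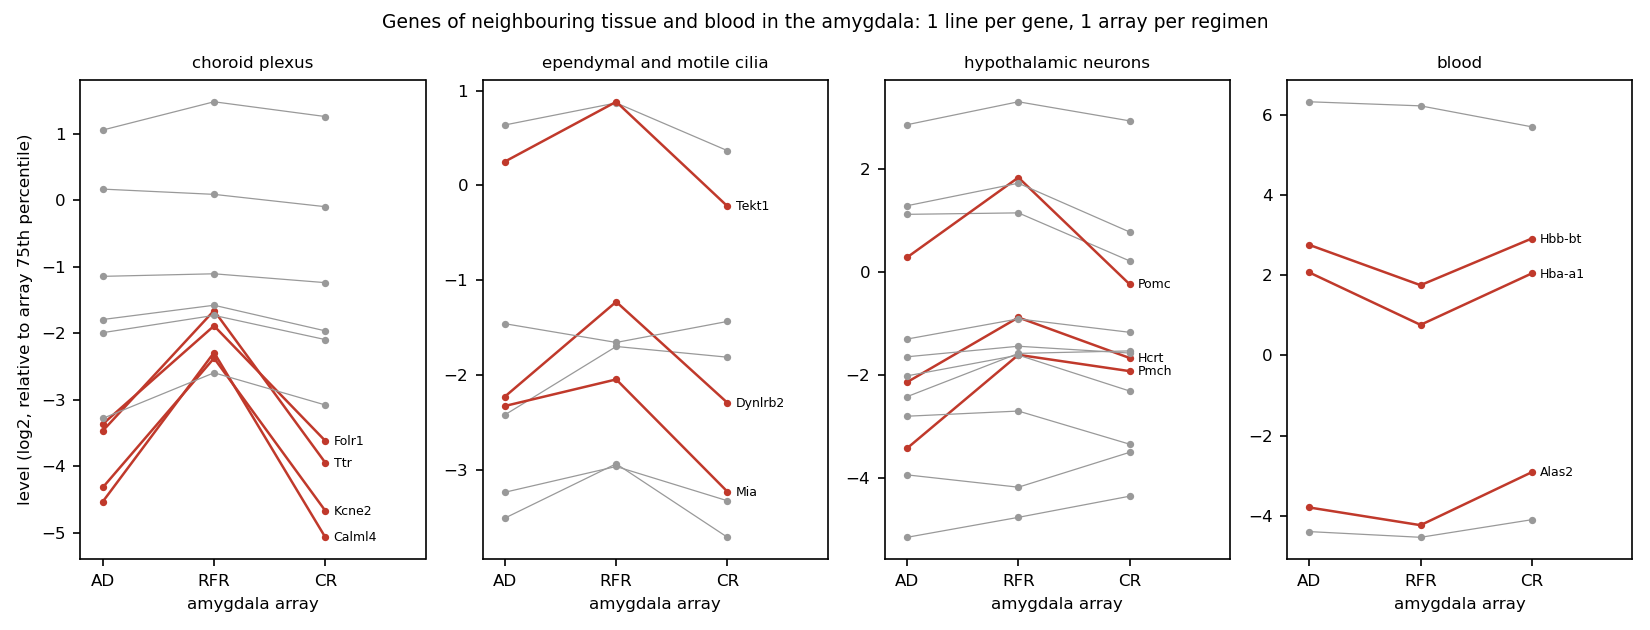
Levels (vertical, log2 relative to the array 75th percentile) of measured genes of 4 lists on the AD, RFR and CR amygdala arrays (horizontal), 1 line per gene. Red lines are genes that differ by at least 2-fold in some pair of arrays. The red choroid plexus genes peak on the RFR array, and Hba-a1 and Hbb-bt are lowest there.

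The CR array carried higher signal of genes of striatal-type projection neurons, the GABAergic cells found in striatum and, as relatives, in central amygdala. Of 13 measured genes, 9 were higher on the CR than on the AD array and 5 by at least 2-fold, with a median 0.46 above that of all genes, and 12 were higher on the CR than on the RFR array. Drd2, the D2 dopamine receptor, had -1.91 on the AD, -1.60 on the RFR and -0.74 on the CR array, and its other probe differed by 1.89 between CR and AD. Gpr6, an orphan receptor of D2 neurons, had -4.14, -3.47 and -2.52. Ppp1r1b, the dopamine-regulated phosphatase inhibitor DARPP-32, had -1.19, -1.12 and -0.04. In all of them the CR array was highest. Adcy5, the main striatal adenylyl cyclase, had 0.53, 0.89 and 1.58, with 0.77 between CR and AD from its other probe. Gng7, a G protein gamma subunit, had -0.59, -0.28 and 0.56, but its other probe differed by -0.26. The brightest members moved less: Penk, the enkephalin precursor, differed by 0.06 between CR and AD and Tac1, the substance P precursor, by -0.43. The summed signal of the 13 genes was 106 (AD), 97.4 (RFR) and 113 (CR).

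Of 10 measured dopamine genes, 5 were higher on the CR than on the AD array and 7 than on the RFR array. Drd4, the D4 receptor, had -1.82 on the AD, -4.48 on the RFR and -3.97 on the CR array, so it was high on the AD array alone. Of the 21 spots around its own, 6 also were at least 2-fold lower on the RFR than on the AD array, against 3.73% of surrounding spots for genes that did not differ 2-fold. The part of array position in this difference was not tested.

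Oligodendrocyte and myelin genes were higher on the CR array too. Of 17 measured, 12 were higher than on the AD and 15 than on the RFR array, with medians 0.33 and 0.44 above that of all genes. This order was not particular to amygdala. The summed signal of 16 of the genes was 135 (AD), 121 (RFR) and 162 (CR) in amygdala. It was 210, 175 and 233 in hypothalamus and 96.8, 91.3 and 125 in prefrontal cortex. Mog, a myelin surface glycoprotein, had -2.42 (AD), -1.90 (RFR) and -1.24 (CR). It was the only one of the 17 past 2-fold between CR and AD, where 3.26% of all genes were. Olig1, a lineage transcription factor, had 2.20, 2.21 and 2.92. The AD and RFR values were close to each other for Olig1. Astrocyte and microglia genes had medians 0.05 and 0.07 above that of all genes between CR and AD. Between CR and RFR the astrocyte median was 0.20 above, with 8 of 13 higher, and the microglia median -0.01 from it. Itgam, an integrin of microglia, had -4.26, -3.84 and -3.06. The list medians of striatal, oligodendrocyte, choroid plexus and ependymal genes named above kept their sign under normexp, quantile scaling, the authors' deposited table and averaged probes.

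Among the remaining bright genes, Lmnb1, a nuclear lamin, had -1.71 on the AD, 0.22 on the RFR and -1.12 on the CR array, and Stk32c, a kinase, 0.01, 1.41 and 0.45. Both were highest on the RFR array. Trim37, a ubiquitin ligase, had 2.31, 0.87 and 2.11, and Naip6, an inflammasome sensor, 0.94, -0.27 and 1.02. Ptprb, the endothelial phosphatase, had 0.91, 0.29 and 1.57. These 3 genes were lowest on the RFR array. Tnfrsf25, a death receptor, had 0.82, 0.96 and -0.58, but its difference between CR and RFR turned from -1.53 to 1.30 when all its probes were averaged.

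Cytosolic ribosomal protein genes ran down from AD through RFR to CR. Of 27 measured genes, 26 were lower on the CR than on the AD array, 24 lower on the RFR than on the AD array and 26 lower on the CR than on the RFR array. Rps19, of the small subunit, had 2.13, 1.59 and 0.94. It was the only one past 2-fold, between CR and AD, where 3.26% of all genes were. Rps15, also of the small subunit, had 3.65, 3.37 and 2.77. The list medians of -0.38, -0.19 and -0.29 stand against -0.28, -0.14 and -0.14 for all genes with a mean level of 4 or more, where most ribosomal protein genes lie. Against the median of all genes the ribosomal protein genes stood at -0.27 between CR and AD, with 25 of 27 below it, but at -0.03 under quantile scaling, which sets the whole range of levels equal. Respiratory chain genes gave -0.31 between CR and AD, with 22 of 26 lower, and -0.23 between RFR and AD, again with 22 of 26 lower. Against all genes the first was -0.20, and -0.01 under quantile scaling.

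**Figure D3:**
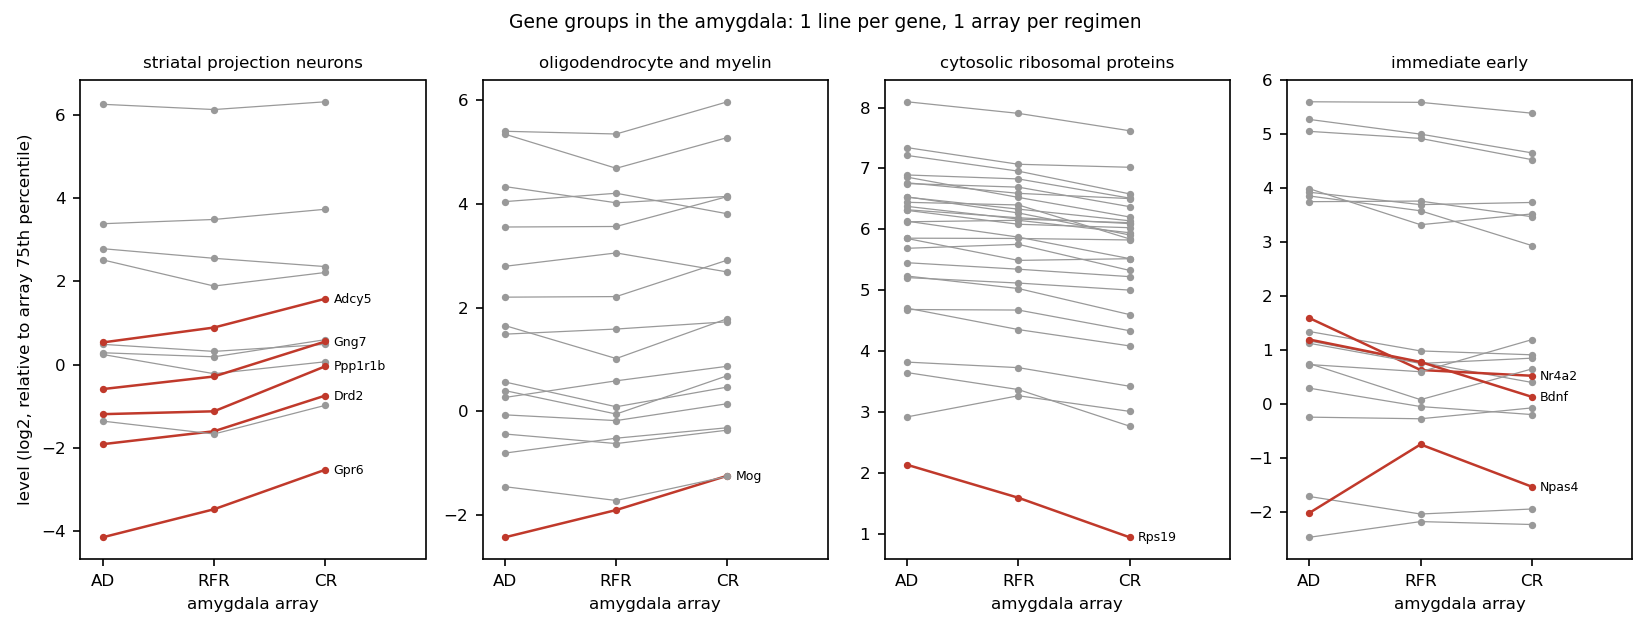
Levels (vertical, log2 relative to the array 75th percentile) of measured genes of 4 lists on the AD, RFR and CR amygdala arrays (horizontal), 1 line per gene, with genes past 2-fold in some pair of arrays in red. The 5 red striatal genes are highest on the CR array, and the ribosomal protein genes slope down together.

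Immediate early genes, which neurons switch on within minutes of activity, were mostly lower on both restricted arrays. Of 19 measured, 15 were lower on the CR and 16 lower on the RFR than on the AD array, with medians of -0.28 and -0.27. Against the median of all genes, 14 of 19 were lower in both comparisons, with the list at -0.17 and -0.24, and at -0.20 and -0.17 under quantile scaling. Nr4a2, an orphan nuclear receptor, had 1.59 on the AD, 0.63 on the RFR and 0.52 on the CR array. Bdnf, the neurotrophin, had 1.2, 0.78 and 0.13, and its other probe differed by -1.04 between CR and AD. Fos, a subunit of AP-1, had 0.29, -0.05 and -0.20, within 2-fold. Npas4, an activity-driven transcription factor, went the other way, with -2.02, -0.75 and -1.53. The letters TGACGT, the core of the cyclic AMP response element, or their complement lay before a start of 9 of 17 matched immediate early genes (52.9%). Over all 27025 genes the share was 7.29%. The full element TGACGTCA lay before 2 of the 17 (11.8%) and 1.77% of all genes. Both were among the 9 motifs searched after the values were known. The 17 genes have 28 start sites and the 27025 have 32851, so the shares per gene are not fully alike. Windows of 3 genes, capitals marking the match, show that a gene higher and genes lower on the RFR array share the letters TGACGT.
Npas4, chr19:4990111-4990164, minus strand: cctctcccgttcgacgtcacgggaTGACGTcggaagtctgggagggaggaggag
Fos, chr12:85473800-85473853, plus strand: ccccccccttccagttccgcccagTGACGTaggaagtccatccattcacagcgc
Bdnf, chr2:109692376-109692429, plus strand: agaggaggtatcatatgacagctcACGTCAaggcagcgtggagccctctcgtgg

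Cortical-type excitatory neuron genes were lower on the RFR than on the AD array at 12 of 13, with none past 2-fold. On the CR array 8 of 13 were lower, with Nr4a2 and Rorb past 2-fold. Over all genes 1.47% (RFR) and 3.26% (CR) passed 2-fold. The summed signal of the cortical-type genes was 55.6 (AD), 45.4 (RFR) and 45.0 (CR). Neurod2, a differentiation factor, had 3.04, 2.72 and 2.05. Rorb, a nuclear receptor of cortical layer 4 that also belongs to the clock genes, had -1.78, -2.42 and -3.17, but its other probe differed by 0.13 between CR and AD.

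Of 9 measured appetite-suppressing peptides, 7 were lower on the CR than on the AD array, with a median of -0.52, and 2 past 2-fold, Ucn and Bdnf; against the median of all genes 5 of 9 were lower. Of 10 genes of the CRF system and steroid receptors, 7 were lower, with a median of -0.36. Ucn, the CRF family peptide urocortin, had -1.93 on the AD, -3.64 on the RFR and -3.66 on the CR array. Fkbp5, a glucocorticoid-induced chaperone that damps the receptor, had -2.03, -1.25 and -1.04, but its 2 other probes differed by -0.86 and 0.30 between CR and AD. Ucn was thus high on the AD array alone, and the Fkbp5 probes disagreed in sign. Over the 16 measured glucocorticoid-induced genes, 10 were lower on the CR and 11 on the RFR than on the AD array. Against the median of all genes, 9 and 11 of the 16 were lower. None passed 2-fold, where 3.26% (CR) and 1.47% (RFR) of all genes did. Mt1, a metallothionein among them, had 4.74, 3.86 and 4.55. Of 10 feeding receptor genes measured between CR and AD, 7 were higher on the CR array and none past 2-fold.

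Among receptors and channels, Adrb1, the beta-1 adrenoceptor, had -3.83 on the AD, -2.84 on the RFR and -2.21 on the CR array. Htr7, a serotonin receptor, had -3.46, -2.79 and -2.32, and Grin2b, an NMDA receptor subunit, -3.28, -2.99 and -2.25. All 3 are dim and lay highest on the CR array. Kcnk2, a two-pore potassium channel, had -2.90, -2.62 and -1.68. Of 18 GABA and 22 glutamate genes measured between CR and AD, 6 and 10 were higher on the CR array, with 1 past 2-fold, Grin2b. The share past 2-fold over all genes was 3.26%. Against the median of all genes, 7 GABA and 13 glutamate genes were higher. Ngfr, the p75 neurotrophin receptor, had -1.31, -0.41 and 0.22, but its other probe differed by -0.01 between CR and AD.

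Of metabolic genes, Hk1, the main brain hexokinase, had 0.22 on the AD, 0.76 on the RFR and 1.49 on the CR array and was the only one of 21 glycolysis genes past 2-fold. Igfbp4, an IGF-binding protein, had -3.46, -2.63 and -2.17. None of 20 genes of fatty acid oxidation and ketone use and none of 23 of sterol and fatty acid synthesis passed 2-fold between CR and AD. The share past 2-fold over all genes was 3.26%, so these counts and that of the glycolysis genes lie near it. Of 19 clock genes, Per3, a period repressor, had -5.03, -3.29 and -3.92, so it was low on the AD array. Heat shock and chaperone genes were lower on the CR than on the AD array at 17 of 21, none past 2-fold, and their median against all genes of -0.20 became -0.08 under quantile scaling and -0.04 with averaged probes.

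**Figure D4:**
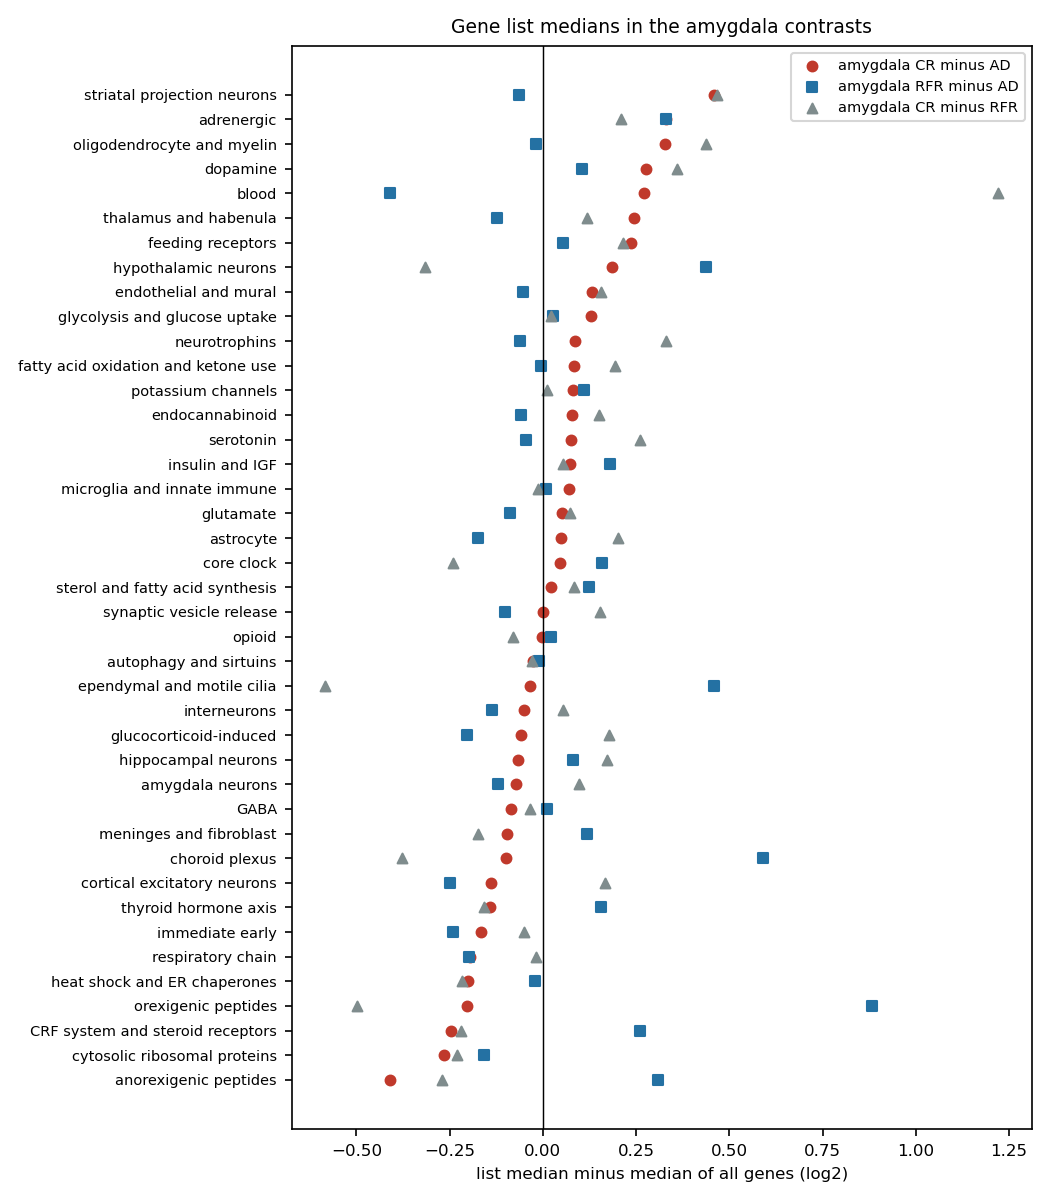
Median difference of each gene list with at least 3 measured genes, minus the median over all genes (horizontal, log2), in the 3 comparisons of amygdala arrays (symbols), ordered by CR minus AD. Choroid plexus stands at 0.59 for RFR minus AD, and striatal projection neurons at 0.46 for CR minus AD.

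The largest differences belong to genes seen on few arrays. Esx1, a placental homeobox gene, was well above background on the AD array alone, at -1.0, at least 34.6-fold above the CR array. Psg27, a placental glycoprotein, was at -1.81 on the AD array alone. S100a14, an epithelial calcium-binding protein, was at -1.58 on the CR array alone, at least 15.7-fold above AD, and Spib, a lymphoid factor, at -1.25 on the RFR array alone, at least 19.8-fold above AD. Each is well above background on 1 of the 9 arrays. Spots of this kind lay side by side: of the 75 spots that were at least 8-fold brighter on the amygdala AD array than on all 8 others, 65.3% had another such spot within 2 rows and columns, against 2.75% of the other noncontrol spots. On the RFR array it was 57.1% of 70 spots against 2.64%, and on the CR array 38.7% of 62 against 2.80%. The other 6 arrays had 37 to 99 such spots, 21.6% to 63.6% of them with a neighbour.

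Among dim genes measured on both arrays, Ldoc1, a regulator of retrotransposon origin, had -5.25 on the AD, -4.67 on the RFR and -2.13 on the CR array, and Mxd1, a repressor that competes with MYC, -4.66, -3.89 and -1.96. Bpifb6, a lipid-binding protein, had -5.17, -5.08 and -2.64. All 3 were high on the CR array alone. Comp, a cartilage matrix protein, had -3.65, -1.12 and -4.30, and Lgr5, a stem cell receptor, -3.27, -1.08 and -2.70, both highest on the RFR array. Usp27x, a deubiquitinase, had -4.35, -2.22 and -2.01, and Kdm4a, a histone demethylase, -4.72, -2.93 and -2.42. Both were low on the AD array alone. Sec14l4, a lipid-binding protein, had -1.69, -3.82 and -5.21, and Shroom3, an actin regulator of epithelia, -2.11, -4.57 and -5.01, both highest on the AD array. Sik3, a salt-inducible kinase, had -3.20, -2.80 and -1.02, with 0.87 between CR and AD from its other probe.

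The same position measure was taken for the genes of the 3 comparisons. Around a gene that differed 2-fold between CR and AD, 9.11% of the spots within 2 rows and columns differed 2-fold the same way, against 5.79% around the other genes. For RFR and AD it was 7.62% against 3.73%, and for CR and RFR 8.35% against 4.61%. Heg1, an endothelial receptor, had -2.90 on the AD, -5.53 on the RFR and -5.79 on the CR array, and 12 of its 24 surrounding spots also were 2-fold lower on the CR array. Around the bright genes with the largest differences, 0 to 3 surrounding spots did so for CR and AD, with 3 of 23 around Raly and 3 of 24 around Ppp3r1 and none around Ddb1. For RFR and AD it was 0 to 2, with none around Pomc or Hba-a1, and for CR and RFR 0 to 5, with 5 of 15 around Syne4 and 4 of 23 around Raly.

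Genes with several probes gave a second check. Of 399 genes that differed 2-fold between CR and AD, 84 had another measured probe, and in 66 of these all other probes differed in the same direction, with 25 having another probe past 2-fold. For RFR and AD it was 18 of 22, with 6 past 2-fold, and for CR and RFR 38 of 46, with 11. Direction was thus mostly shared and size less often.

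Whether the amygdala difference is like that of the other regions was asked over the 11231 genes well above background on all 9 arrays, with arrays set to equal medians. The CR minus AD differences of hypothalamus and prefrontal cortex correlated across genes with Pearson's r of 0.67, while amygdala correlated with them at -0.06 and -0.11. RFR minus AD gave 0.47 between those regions and -0.06 and -0.14 with amygdala. CR minus RFR, which leaves out the AD arrays, gave 0.28 and 0.45 with amygdala and 0.46 between the other regions. So these correlations with amygdala were positive where AD was left out and near or below 0 where it entered. Genes are not independent replicates, and the 3 regions of a regimen come from the same mice. Of 219 genes with CR minus RFR of at least 0.5 in size and of 1 sign in both other regions, 200 had that sign in amygdala, against 320 of 699 (45.8%) for CR minus AD and 91 of 149 (61.1%) for RFR minus AD.

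A limma fit over the 9 arrays tested whether the amygdala difference was unlike the mean of the other 2 regions. Its spread comes from the hypothalamus and prefrontal cortex arrays with 2 residual degrees of freedom. The fit took genes well above background on at least 3 of the 9 arrays, with no such demand on the amygdala arrays. The AD arrays of both those regions lie on slide 1 and their CR arrays on slide 2, while the amygdala CR array lies on slide 3, so slide and regimen cannot be told apart in the shared CR minus AD difference of those regions or in this test. For CR minus AD, 1702 of 12535 genes passed an adjusted p of 0.05 (Benjamini-Hochberg), 962 with a higher (7.67%) and 740 with a lower (5.9%) difference in amygdala, and 4884 had an unadjusted p under 0.05. For RFR minus AD no gene passed in limma (0%), with 3371 at an unadjusted p under 0.05 and 289 passing under normexp. The smallest adjusted p for CR minus AD was 0.0401, near the threshold. When any of the 6 arrays of the other regions was left out, which leaves 1 residual degree of freedom, 0 to 11 genes passed for CR minus AD, the 11 without the hypothalamus CR array.

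Actb differed by 2.97 ± 0.12 (SE) more in amygdala than in the other regions, with a limma adjusted p of 0.0401. This SE and those below come from the other regions. They leave out the spread between pools of mice and between amygdala dissections. Slc4a7 differed by -5.80 ± 0.23 and Raly by -1.95 ± 0.13, both with the same limma adjusted p of 0.0401. Ppp3r1 (-2.42 ± 0.19), Magee1 (1.98 ± 0.13) and Tatdn2 (2.16 ± 0.13) had that limma adjusted p as well. For Actb and Slc4a7 the other regions changed opposite to amygdala, and for Raly they hardly moved. Among members of the lists, Drd2 differed by 1.66 ± 0.19 (limma adjusted p = 0.0401), Drd4 by -2.26 ± 0.21 (0.0401), Ppp1r1b by 1.27 ± 0.19 (0.0410), Gpr6 by 2.20 ± 0.41 (0.0460), Mog by 1.36 ± 0.26 (0.0477) and Rps19 by -1.45 ± 0.14 (0.0401). Bdnf, with -0.84 ± 0.23, did not pass (limma adjusted p = 0.0783), and neither did Ucn, with -1.18 ± 0.34 (limma adjusted p = 0.0841). In simulated data with 12335 of 12535 genes unchanged, the fit recovered 16% of changes of 1 log2 unit. Here 1702 genes passed, which shifts the adjusted p, so the simulated share need not hold for Bdnf and Ucn. Not passing does not show that a gene did not differ.

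**Figure D5:**
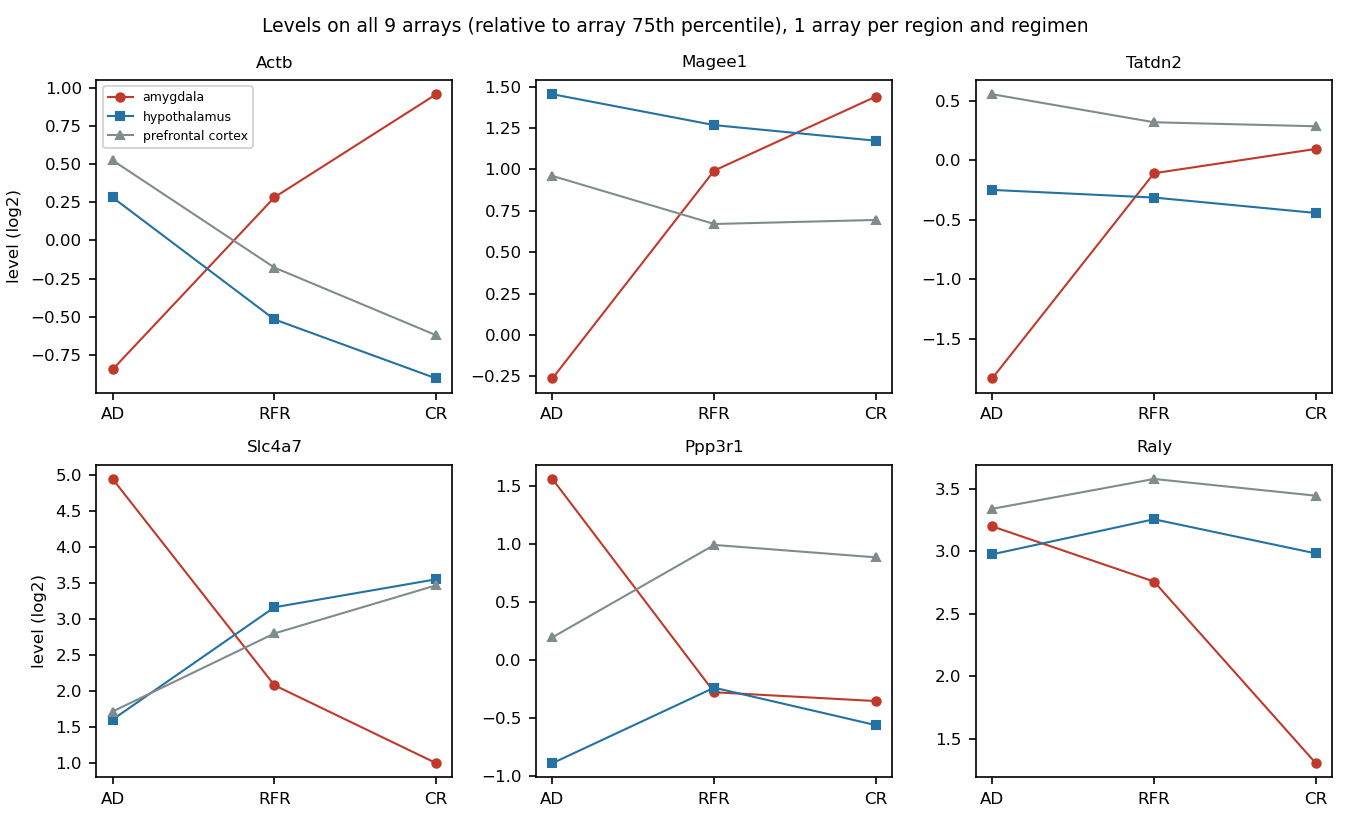
Levels (vertical, log2 relative to the array 75th percentile) of 6 genes on the AD, RFR and CR arrays (horizontal) of amygdala, hypothalamus and prefrontal cortex, 1 array per point. For Actb and Slc4a7 the amygdala line crosses those of the other regions, and for Raly only the amygdala CR array, at 1.31, lies low.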

How the data were processed

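Per the file headers, the authors' arrays are Agilent 1-colour scans read with Feature Extraction 9.5.1.1, and the signal deposited for each spot is an intensity from which the software had taken background and spatial trend, with no scaling between arrays. The flags for well above background, saturated and outlier spots are other deposited columns, holding 0 or 1, as the file headers name them. The authors' deposited table holds a ratio to the AD array of the same region, with its scaling not given in the sources used here, and 99.3% of its values came within 0.01 (log2) of the processed signals after 1 constant per array.

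Spots of a probe were averaged, log2 signal was taken relative to the array's 75th percentile, and 22951 of 41174 probes were named through RefSeq symbols, giving 16358 genes, while 18223 probes stayed unnamed and unused. Of several probes, the one brightest on average stands for the gene. In the amygdala comparisons, genes were compared where well above background on both arrays. Otherwise a bound was used, the bright value over the lowest signal well above background on the other array. The interaction fit instead took genes well above background on at least 3 of the 9 arrays, whichever these were. A difference of 1 log2 unit was counted. Named genes are the 8 largest in each direction among all and among bright genes, up to 6 members of a list and any past 2-fold, the 5 largest bounds, the 5 widest gaps of an array to both others, and up to 10 genes per direction of the interaction test; the text gives a part of them. limma 3.58.1 (R 4.3.3) fitted the interaction over 9 arrays, with Benjamini-Hochberg adjustment. Its script was tested on simulated data for CR minus AD, with 50 changed genes at each size. It recovered 0% of changes of 0.5 log2 units, 16% of 1, 90% of 2 and 98% of 4. Tables used Python 3.11.15, pandas 2.3.3 and numpy 2.4.6.

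The genes and the 42 gene lists were chosen with earlier results of these data known. Spike-in scaling, spot position, regional likeness, the trend with level and the promoter search were added after seeing the data. Alternatives were normexp (offset 50, on median spot signals), quantile scaling, equal medians, the authors' table, averaged probes, no filter on dim genes and 1.5 log2 units. With 1 array per group, the number of arrays limits the precision.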

Additional observations from a re-analysis of the deposited data

Results flagged for a closer look

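In the limma interaction test, 1702 genes had a CR minus AD difference in amygdala unlike the mean of the other regions. The 10 genes per direction with the smallest limma adjusted p, each 0.0401, are given with the amygdala difference minus that of the other regions. Higher in amygdala were Actb (2.97), Sik3 (2.76), Olfr821 (3.48), Gna12 (2.30), Nkain1 (2.29), Ppp1r13l (2.43), Vangl1 (3.24), Bpifb6 (3.62), Tatdn2 (2.16) and Magee1 (1.98). Lower in amygdala were Slc4a7 (-5.80), Stfa2l1 (-5.32), Raly (-1.95), Rorb (-1.74), Zfp788 (-1.51), Angptl1 (-1.76), Ppp3r1 (-2.42), Syncrip (-1.50), Phtf2 (-1.41) and Gtdc1 (-1.40). Gna12, a G protein alpha subunit, had -2.95 on the AD, -1.90 on the RFR and -1.02 on the CR amygdala array. Syncrip, an RNA-binding protein, had 0.13, -0.36 and -0.34, so its AD array was the high one. Vangl1 was not well above background on the amygdala AD array, so its difference rests on a value under that flag. Each regimen's 3 regions come from the same pooled mice, and the amygdala CR array is alone on its slide.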

How the results depend on the processing

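The number of 2-fold genes moved with the treatment of dim genes. For CR and AD, 399 became 142 under normexp, 1294 without the filter on dim genes, 89 at 1.5 log2 units and 837 with spike-in controls set equal. For RFR and AD, 177 became 75, 809, 49 and 414 in the same order, and for CR and RFR, 264 became 115, 1005 and 50 under the first 3. Under normexp the AD array stood apart at 15 genes upward and 14 downward, the RFR array at 13 and 5 and the CR array at 7 and 14. Quantile scaling gave 15 genes lower on the RFR array, averaged probes 38 higher on the AD and 62 higher on the RFR array, and 15 were lower on the CR array with the authors' deposited table. Between CR and RFR, averaged probes turned Tnfrsf25 to 1.30 and the heat shock list median from -0.22 to 0.015. Of 496 list medians under the alternatives, 50 had the other sign, 2 of them among the 168 that had a size of at least 0.2 as reported, the heat shock list and the orexigenic peptides (CR minus AD, -0.20 to 0.10 with the authors' deposited table). The limma interaction count for CR minus AD was 2567 under normexp, 3371 with the authors' deposited table, 3326 over genes well above background on all 9 arrays, 0 without a filter, 1047 with averaged probes, 3808 with trend and robust moderation, 2 with this interaction alone and 0 to 11 with any array of the other regions left out. The 0 without a filter had 4514 genes at an unadjusted p under 0.05. For RFR minus AD it was 289, 1046, 875 and 1498 under normexp, the authors' deposited table, all 9 arrays and trend with robust moderation. The cause was not tested. Slide as a fixed term was not run for the CR interaction, since the amygdala CR array is alone on its slide. No paired analysis was possible because each region and regimen has 1 array and so no replicate numbers to pair.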
